A study of Caenorhabditis elegans with 12 samples.

Results

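The genes clc-9, clc-19 and clc-25 carry names of the claudin-like family of Caenorhabditis elegans, and their transcript levels are described here in worms kept on lithium chloride (LiCl) and in untreated worms. They were selected by gene symbol from a set of 17 clc- genes with a named probe. These 3 were the family members already seen to differ between LiCl and control in these same arrays. Each is measured by 1 probe, so 3 probes are described out of 22370 in the table and out of 8757 with a gene name. RefSeq lists 32 clc- genes in the WBcel235 assembly, and the other 15 have no named probe here. A further 13613 probes carry no gene name, so a gene without a named probe may still have a probe among these. A gene is called measured below where it has a named probe.

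The LiCl group was 6 samples of wild-type N2 hermaphrodites kept for 48 h at 25 °C with 10 mM LiCl, and the control group was 6 samples kept for the same time and at the same temperature without it. All worms had been raised from the egg at 20 °C, 50 worms were picked for each sample, and the submitters describe the samples as independently grown and harvested. Every sample, labelled with Cy5, was hybridised to its own 2-colour array against a Cy3-labelled pool of RNA from mixed-stage N2 animals, and no dye swap is named. The question put to these genes is how far their transcript levels differ after LiCl in otherwise wild-type worms. RNA came from whole worms, so a change in RNA per cell and a change in the number of cells that hold it cannot be told apart.

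Claudins are small proteins that cross the membrane several times. In vertebrate epithelia they form the strands of tight junctions, which seal the space between cells and set which ions may pass through it. Worms have no tight junctions of the vertebrate form, yet C. elegans has claudin-like proteins at epithelial cell contacts. The best known is the product of clc-1, which contributes to the barrier of the pharynx, and clc-2 has been linked to the barrier of the epidermis. Neither clc-1 nor clc-2 has a named probe on this array. The letters clc stand for claudin-like in C. elegans and not for chloride channels. What clc-9, clc-19 and clc-25 do individually is not given in the RefSeq table used.

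Values are deposited log ratios, read as sample over reference, in which 0 means equal signal in both channels. The log base is not stated, so differences stand in deposited log ratio units with no fold change. The direction is likely rather than stated, since only the dyes named for each channel point to it. With the ratio turned, every "higher" below would read "lower". A ratio says how a worm sample stands against the reference for that probe, and it does not rank the abundance of different genes. Array medians lay between 0.018 and 0.044, and each array lacked a value for 16 to 150 probes, none of them a probe of these 3 genes. LiCl replicate 1 had the lowest array weight of the 12 arrays (0.524, where limma gives noisier arrays a lower weight) and the highest 95th percentile of log ratios, 1.83 against 1.59 to 1.69 on the other LiCl arrays and 1.46 to 1.56 on the control arrays.

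For clc-9, on chromosome IV, the log ratios were 2.02, 1.34, 1.73, 1.73, 1.39 and 1.13 in LiCl replicates 1 to 6, against 0.33, 0.82, -0.10, 0.16, -0.45 and -0.11 in control replicates 1 to 6. The groups did not overlap, and a gap of 0.31 separated the lowest LiCl array, replicate 6, from the highest control array, replicate 2. The control arrays lay on both sides of 0, 3 above and 3 below it, whereas all 6 LiCl arrays lay above it. The means were 1.56 ± 0.33 (SD, n = 6) in LiCl and 0.11 ± 0.44 (SD, n = 6) in control. The difference of 1.45 ± 0.23 (SE) is the largest in the measured clc- genes and holds place 322 of 22370 when all probes are ordered from the most positive difference down.

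For clc-19, on chromosome III, LiCl replicates 1 to 6 had log ratios of 1.77, 1.19, 0.35, 0.56, 0.72 and 0.72, against 0.14, 0.07, -0.35, 0.22, -0.64 and -0.21 in control replicates 1 to 6. Here too the groups stood apart, but the gap between LiCl replicate 3 and control replicate 4 was only 0.12. LiCl replicates 1 and 2 stood above the other 4 LiCl arrays, which lay between 0.35 and 0.72. The means were 0.89 ± 0.52 (SD, n = 6) in LiCl and -0.13 ± 0.33 (SD, n = 6) in control, a difference of 1.01 ± 0.25 (SE), at place 957 among all probes. As with clc-9, the control values straddled 0, with 3 arrays above and 3 below it.

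For clc-25, also on chromosome III, the log ratios were 1.62, -0.19, 0.56, 0.39, 0.43 and 0.86 in LiCl replicates 1 to 6, against -0.01, -0.27, -1.05, -0.40, -0.86 and -0.47 in control replicates 1 to 6. The groups overlapped through 1 array on each side, since LiCl replicate 2 lay below control replicate 1 and above the other 5 control arrays. All 6 control arrays lay below 0, the one pattern of this kind among the 3 genes, while 5 of 6 LiCl arrays lay above it. The means were 0.61 ± 0.60 (SD, n = 6) in LiCl and -0.51 ± 0.38 (SD, n = 6) in control, a difference of 1.12 ± 0.28 (SE), at place 748.

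**Figure D1:**
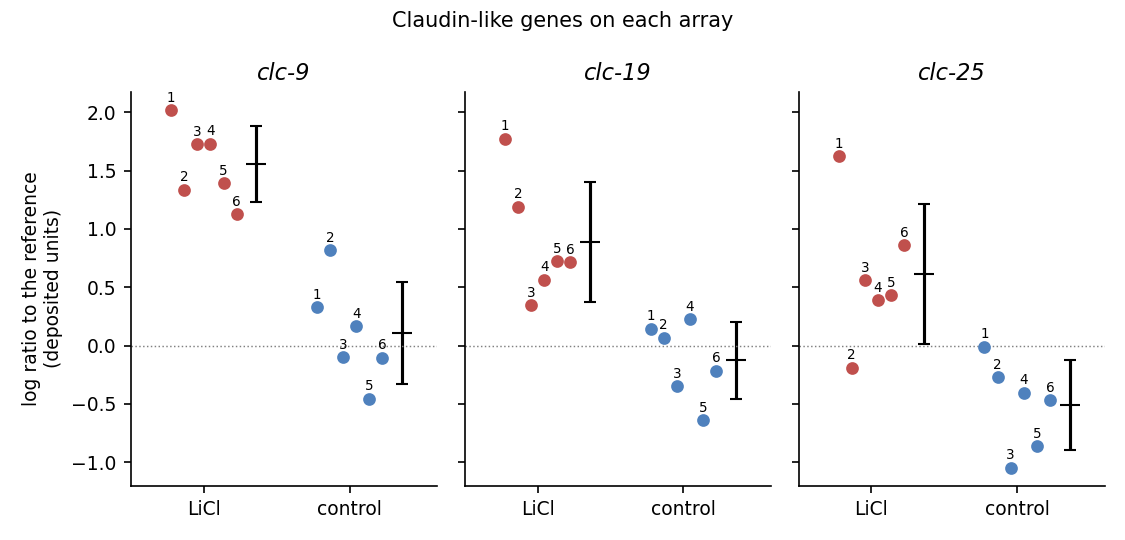
Log ratio to the mixed-stage reference (deposited units) of clc-9, clc-19 and clc-25 on each of 12 arrays, 6 LiCl arrays at the left of each panel and 6 control arrays at the right. Points carry the replicate number, and black bars show the group mean ± SD. LiCl replicate 1 is the highest point of every panel, and only in clc-25 do the groups overlap.

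These differences chose the genes, so they are given as a description and not as a test. In the limma fit over all probes that the choice used, the Benjamini-Hochberg adjusted p was 0.00207 for clc-9, 0.0255 for clc-19 and 0.0284 for clc-25, and the nearest family member beyond the threshold of 0.05 was clc-26 at 0.172. By that fit 8% of all 22370 probes passed in either direction, 4.5% being higher and 3.5% lower in LiCl. For 3.6% of all probes the lowest LiCl array lay above the highest control array, as it did for clc-9 and clc-19. Spread within groups was close to that of other probes. The pooled within-group SD was 0.39 for clc-9, 0.43 for clc-19 and 0.50 for clc-25, beside a median of 0.48 over all probes.

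The choice of clc-9 was kept when any single array was left out, and that of clc-19 and clc-25 was not. With control replicate 3, 5 or 6 left out, the limma adjusted p of clc-19 was 0.0569, 0.0527 or 0.0539. For clc-25 it was 0.0509 or 0.0557 without LiCl replicate 3 or 6, and 0.0642, 0.0527, 0.0584 or 0.0539 without control replicate 3, 4, 5 or 6. The differences themselves moved little, within 1.33 to 1.59 for clc-9, 0.84 to 1.12 for clc-19 and 0.92 to 1.28 for clc-25.

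LiCl replicate 1 was the highest LiCl array in all 3 genes. Without it the difference was 1.35 ± 0.23 (SE) for clc-9, 0.84 ± 0.20 (SE) for clc-19 and 0.92 ± 0.23 (SE) for clc-25. On the 8 arrays of higher weight, which leave out LiCl replicates 1, 2 and 6 and control replicate 5, the difference of clc-19 was 0.57 ± 0.19 (SE) with an adjusted p of 0.159 (limma), and that of clc-25 was 0.90 ± 0.24 (SE) with an adjusted p of 0.0822 (limma). The clc-9 difference was 1.39 ± 0.24 (SE) there. The part of array quality in these sizes was not tested.

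The other 14 measured clc- genes serve as the background of the family. In the same limma fit none passed the threshold in either direction, against 8% of all probes. At an unadjusted p under 0.05 there was 1 of 14 (7.14%), against 22.8% of all probes. Their median difference was 0.07, beside 0.02 over all probes, with 9 positive and 5 negative differences between -0.55 and 0.57. Standard errors of 0.22 to 0.67 leave room for differences of moderate size in either direction. Since the 3 genes had been taken out of the 17 by this very contrast, a contrast between them and the remaining 14 carries no test. The choice also lowered the shares of the 14, so their place below the shares of all probes carries no test either. Of all 17 measured clc- genes, 3 were called higher and 0 lower.

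Among these 14, clc-26 had the smallest p, with log ratios averaging -0.73 ± 0.43 (SD, n = 6) in LiCl and -1.30 ± 0.40 (SD, n = 6) in control, a difference of 0.57 ± 0.24 (SE). The next were clc-11 (difference -0.55 ± 0.29, SE, adjusted p = 0.29 by limma) and clc-32 (0.40 ± 0.22, SE, adjusted p = 0.311 by limma). The differences of clc-17 (-0.39 ± 0.29, SE), clc-33 (0.49 ± 0.41, SE) and clc-7 (-0.29 ± 0.28, SE) had adjusted p-values of 0.482, 0.526 and 0.588 (limma). The log ratios against the mixed-stage pool ran from -3.54 ± 0.39 (SD, n = 6) in LiCl and -2.99 ± 0.63 (SD, n = 6) in control for clc-11 to 0.87 ± 0.51 (SD, n = 6) in LiCl and 0.80 ± 0.36 (SD, n = 6) in control for clc-31. The group mean was below 0 for 10 of the 14 genes in LiCl and 11 in control.

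**Figure D2:**
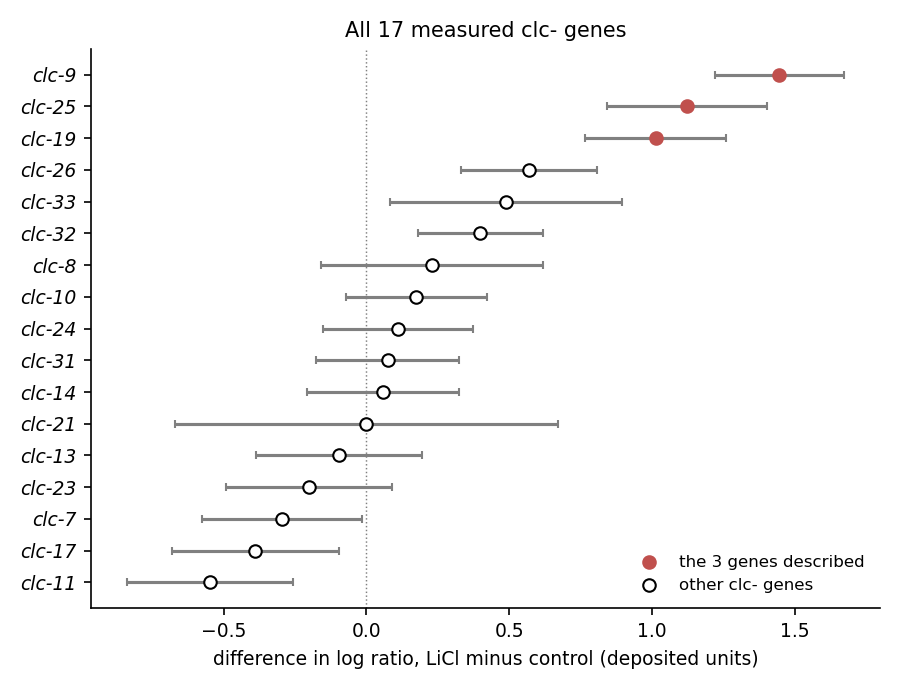
Difference in log ratio, LiCl minus control (deposited units), for each of the 17 measured clc- genes, with bars of 1 moderated SE and n = 6 arrays per group. The filled points of clc-9, clc-25 and clc-19 lie between 1.01 and 1.45, and the 14 open points lie between -0.55 and 0.57.

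Chromosome III holds 11 of the 32 clc- genes of the RefSeq annotation, of which 6 were measured, and 2 of the 3 genes described lie there. Between clc-19 and clc-25 the annotation places 34 other protein-coding genes. In chromosomal order clc-25 lies in a run of clc- genes, with clc-23 as its nearest protein-coding neighbour on one side and clc-26 on the other. The neighbours clc-23, clc-24 and clc-26 each have a probe, and their differences were -0.20 ± 0.29, 0.11 ± 0.26 and 0.57 ± 0.24 (SE), beside 1.12 ± 0.28 (SE) for clc-25. None of these 3 neighbours passed the limma test (adjusted p = 0.738, 0.848 and 0.172). Y34F4.3, between clc-24 and clc-23, and E_BE45912.2, next beyond clc-26, carry no clc- name. They differed by -0.48 ± 0.29 and -0.17 ± 0.16 (SE), also short of the threshold.

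The span of clc-19 lies wholly inside that of clc-20, another clc- gene, which has no named probe. The sequence of the clc-19 probe was not available here, so whether it also takes up RNA of clc-20 is not settled by these values. Next to that pair T24C4.3, whose function is not stated in the annotation, fell in LiCl, with -0.18 ± 0.33 (SD, n = 6) in LiCl and 0.45 ± 0.20 (SD, n = 6) in control. Its difference was -0.64 ± 0.18 (SE, limma adjusted p = 0.0455), opposite in sign to that of clc-19. This call lay near the threshold and was lost when any of 10 single arrays was left out (adjusted p up to 0.0988 there), all but LiCl replicate 4 and control replicate 1. T24C4.5 on the other side differed by 0.13 ± 0.16 (SE, limma adjusted p = 0.69) and T24C4.2 by 0.08 ± 0.31 (SE, limma adjusted p = 0.909). On chromosome IV clc-9 overlaps imp-2, which has no named probe. Of the 3 nearest protein-coding genes on either side of clc-9 only srlf-24 has a named probe, with a difference of 0.22 ± 0.31 (SE, limma adjusted p = 0.733).

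**Figure D3:**
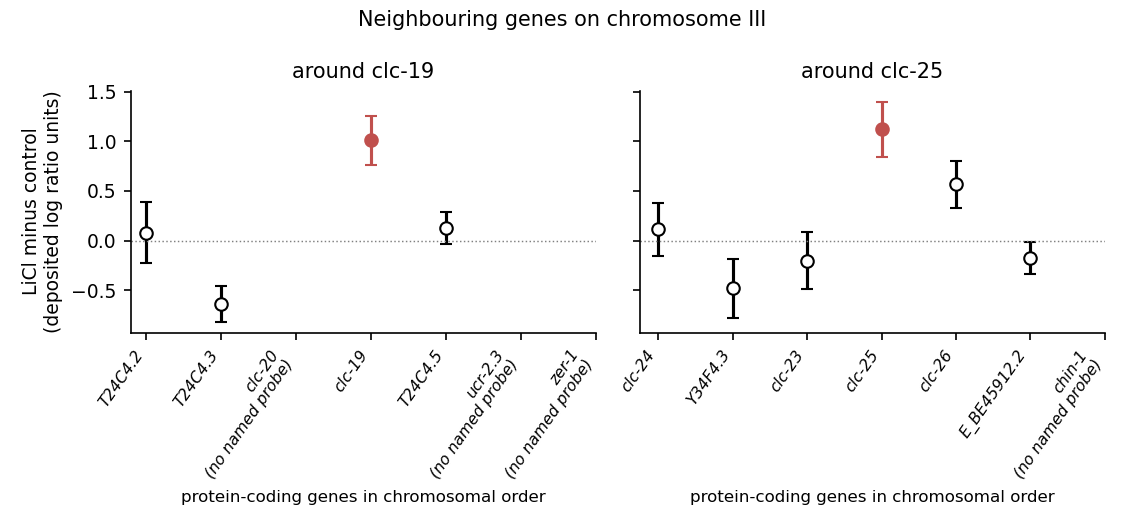
Difference in log ratio, LiCl minus control (deposited units, bars of 1 moderated SE, n = 6 arrays per group), for the 3 nearest protein-coding genes on each side of clc-19 and clc-25 on chromosome III, in gene order and not to distance. The filled points are clc-19 (1.01) and clc-25 (1.12), and T24C4.3 (-0.64) is the one neighbour drawn that passed the limma test.

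Whether the 3 genes also vary together among worms of the same treatment is a separate question. The choice used the difference of each gene and the size of its own spread within groups, and not whether the genes deviate together. Within the 6 control arrays the correlation was 0.78 between clc-9 and clc-19 (Spearman's rho 0.71), 0.70 between clc-9 and clc-25 (rho 0.77) and 0.81 between clc-19 and clc-25 (rho 0.77). Of 21838 other probes, 96.0%, 92.4% and 96.2% had a lower r with the first gene of the pair, and the rest reached such an r or a higher one. By the exact permutation test over pairings, two-sided, p was 0.0528, 0.122 and 0.0611, and after Benjamini-Hochberg adjustment over the 6 correlations 0.183, 0.244 and 0.183. For rho the exact p was 0.136, 0.103 and 0.103, with an adjusted p of 0.272 for each. With the 2 of the 6 arrays farthest from the median of the first gene left out, r was 0.88, 0.82 and 0.94.

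Within the 6 LiCl arrays the same pairs had r of 0.35, 0.53 and 0.48 and rho of 0.09, 0.26 and 0.14. Here 71.6%, 83.2% and 78.8% of the other probes had a lower r with the first gene. The exact permutation p was 0.504, 0.261 and 0.336 (adjusted 0.504, 0.392 and 0.403), and for rho 0.919, 0.658 and 0.803 (adjusted 0.919 for each). With LiCl replicate 1 alone left out, r was -0.61, -0.10 and -0.71. With the 2 arrays farthest from the median of the first gene left out, replicate 1 being 1 of them for each pair, r was -0.86, 0.69 and 0.22, so the sign in LiCl changed with the arrays kept. No correlation passed the test in either group, and the difference between the groups was not tested. Replicate 5 was the lowest control array for clc-9 and clc-19, and replicate 3 was the lowest for clc-25.

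**Figure D4:**
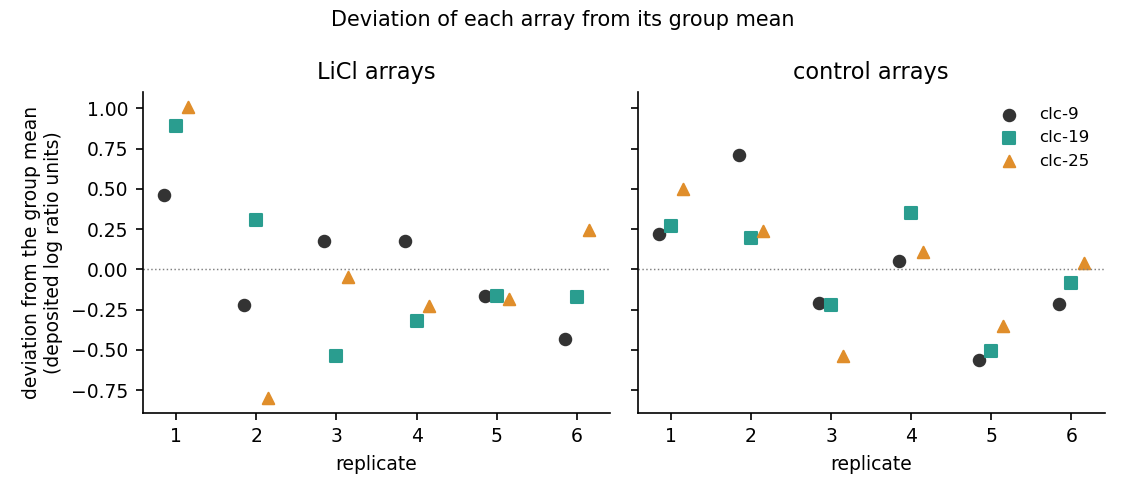
Deviation of each array from the mean of its group (deposited log ratio units) for clc-9, clc-19 and clc-25, with 6 LiCl arrays at the left and 6 control arrays at the right. All 3 genes lie above the mean on LiCl replicate 1 and control replicates 1, 2 and 4, and below it on LiCl replicate 5 and control replicates 3 and 5.

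The named genes most like each of the 3 over all 12 arrays were found by Pearson's r, which takes in the difference between the groups and is given as a description. For clc-9 they were Y39A1A.18, W09D6.4 and W01A11.7 (r = 0.955, 0.954 and 0.954), with differences between LiCl and control of 2.14, 3.96 and 2.02. For clc-19 they were F07C3.9, F17C11.12 and E04F6.9 (r = 0.936, 0.935 and 0.935), with differences of 0.64, 0.78 and 1.22. For clc-25 they were R07E3.4, ttbk-3 and F42H10.2 (r = 0.943, 0.939 and 0.933), with differences of 1.03, 1.80 and 0.71. The gene ttbk-3 belongs by name to the tau tubulin kinases, and the sequence-named genes have no function stated in the annotation.

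By this measure the 3 claudin-like genes were farther from one another than from the genes just named, which were picked as the nearest. All 3 had been chosen by their difference between the groups, which r over the 12 arrays takes in, so that r carries no test here. Over the 12 arrays r was 0.85 for clc-9 with clc-19 and with clc-25, and 0.83 for clc-19 with clc-25. Each stood between places 89 and 179 in the order of likeness to another of them, among 8525 named probes with a value on every array. With the group means removed, r was 0.51 for clc-9 with clc-19, and 0.57 for clc-25 with each of the others. These values take in LiCl replicate 1, without which r within LiCl was negative for each pair. The lists then held other genes, C34D1.4, C06A5.2 and eif-2D for clc-9 (r = 0.923, 0.910 and 0.890), F53C11.1, Y55B1AR.3 and Y66D12A.21 for clc-19 (r = 0.921, 0.909 and 0.904), and F15A4.2, T09A5.4 and Y18D10A.21 for clc-25 (r = 0.911, 0.910 and 0.909). None of these 9 genes passed the limma test between LiCl and control, beside 8% of all probes. With so few genes that count is near this share and is not a result about them.

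Partners of claudins at epithelial contacts could not be set beside these genes. None of 48 listed genes of the adherens junction, the apical complexes, cadherins and the wider claudin superfamily has a named probe here, nor has any tetraspanin, innexin, collagen or cuticlin-like gene of the lists used. Of the genes named after human transmembrane (TMEM) proteins, 9 were measured and 2 rose, tmem-132 by 1.74 ± 0.18 (SE, limma adjusted p = 0.000173) and tmem-189 by 0.91 ± 0.16 (SE, limma adjusted p = 0.00437). The other 7 did not pass the test. Over all probes 4.5% were higher and 3.5% lower by the same rule, and the median difference was 0.20 for the 9 genes and 0.02 over all probes. Mean log ratios of tmem-132 were 1.79 ± 0.34 (SD, n = 6) in LiCl and 0.05 ± 0.23 (SD, n = 6) in control. Those of tmem-189 were -0.08 ± 0.27 (SD, n = 6) in LiCl and -0.98 ± 0.18 (SD, n = 6) in control.

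Markers of the tissues in which claudin-like genes could be expressed almost all lacked a named probe, with none of 8 epidermal and none of 7 intestinal markers carrying one. Only 2 of the 7 pharyngeal, 2 of the 7 germline and oocyte and 2 of the 5 sperm markers were measured, and all 6 were called in 1 direction or the other, where 8% of all probes were. These 6 had been listed with their calls in these arrays already known, so their count carries no weight of its own. Among the measured pharyngeal markers phat-8 rose by 1.01 ± 0.26 (SE), whereas pqn-15 had a difference of -0.96 ± 0.19 (SE) and fell, and their mean per array lay between -1.75 and -0.93 in LiCl and between -1.58 and -0.69 in control. Of the 2 measured germline and oocyte markers syp-6 fell (-0.77 ± 0.16, SE), as did memi-2 on 1 of its 2 probes (-0.63 ± 0.14, SE), the other having a difference of -0.46 ± 0.18 (SE). The mean of these germline probes lay between 0.36 and 0.98 in LiCl arrays and between 1.29 and 1.56 in control arrays, with no overlap. Since these markers were listed with their calls known, this lack of overlap carries no weight of its own either. Of all 22370 probes taken singly, 1478 had no overlap in 1 direction or the other. Of the 2 measured sperm markers spe-51 rose (2.07 ± 0.51, SE) and spe-57 fell (-0.88 ± 0.23, SE, with 5 control arrays), and their mean lay between 0.08 and 1.61 in LiCl and between -0.16 and 1.13 in control. The calls of phat-8, spe-51 and spe-57 were each lost for 8 of the 12 choices of an array to leave out, whereas pqn-15, syp-6 and memi-2 kept theirs whichever single array was left out. The measured germline markers were lower in LiCl, and the pharyngeal and sperm markers went both ways. These markers and the claudin-like genes were both chosen with their differences known, so their directions side by side carry no test. The part of any of these tissues in the result was not tested.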

How the data were processed

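Amplified RNA of 12 samples, 6 LiCl and 6 control, was measured on 2-colour arrays against a common reference, and groups follow the sample titles. The values as deposited are processed log ratios. Their base, log2 or another, is not stated, and they were used in deposited units without conversion. How the authors normalized it is not given in the sources used here, and the array medians and nearly equal interquartile ranges (1.33 to 1.34) show values already put on a common scale. Gene names came from the platform annotation and were updated through Entrez identifiers to WBcel235 (8724 of 8757 named probes matched).

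All 22370 probes had values on at least 4 arrays per group and entered a two-sided limma fit without covariates (limma 3.58.1, R 4.3.3, functions lmFit and eBayes) with Benjamini-Hochberg adjustment over all probes and a threshold of 0.05. Correlations between the 3 genes used exact permutation over the 720 pairings of 6 arrays, in Python 3.11.15 with scipy 1.17.1. The fit was tested on simulated data. Members, lists and tests were chosen with earlier results of these data known, and the neighbouring genes and the setting with 8 arrays after seeing the data. Named were the 3 genes, the 6 other clc- genes with the smallest p and those of highest and lowest control level, called members of other lists, and the 3 most alike genes per member. Planned protein and promoter features were not analysed here. The number of arrays limits the precision. Alternatives were 2 normalizations, array weights, another variance model, filters, a replicate block and leaving out arrays. Same-numbered samples were not treated as pairs. Figures were drawn with matplotlib 3.10.9.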

Additional observations from a re-analysis of the deposited data

Results flagged for a closer look

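Of 34 comparisons of 1 array with the other 5 of its group, over the 17 clc- genes in both groups, 1 array stood far apart, where chance gives about 1 in 20, or 1.7. This was control replicate 5 in clc-11, at -1.77, the highest of a control group with a median of -3.21 and a lowest value of -3.59. No array of clc-9, clc-19 or clc-25 stood apart by this measure, LiCl replicate 1 included. The measure takes 1 gene at a time, so it does not weigh that replicate 1 was the highest LiCl array in each of them.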

How the results depend on the processing

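The differences of clc-9, clc-19 and clc-25 kept their sign under every setting that gave a value. Leaving out 1 array gave 1.33 to 1.59, 0.84 to 1.12 and 0.92 to 1.28, and the other settings gave 1.36 to 1.46, 0.57 to 1.02 and 0.90 to 1.13. The lowest clc-19 value, 0.57, came from the 8 arrays of higher weight. The probes of clc-19 and clc-25 were not among those above the median mean absolute log ratio. Among the other clc- genes 0 passed limma under each of the 20 settings. The call of T24C4.3 was lost under 13 of 19 settings, with adjusted p up to 0.203, those of phat-8, spe-51 and spe-57 under 10 of 20, 9 of 20 and 11 of 18, and that of syp-6 and of memi-2 under 1 of 20, the 8 arrays of higher weight.

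The number of changed probes, 1789 (1006 higher, 783 lower), was 1099 with 395 lower among probes above the median mean absolute log ratio, where fewer probes were tested, and 838 with 521 higher and 317 lower on the 8 arrays, which shared 702 calls. With 1 array fewer the total ranged from 1181 to 1600, the higher probes from 697 to 976 and the lower from 479 to 681, the lowest counts coming without control replicate 4 (1181 and 484 lower) or 6 (479 lower). Of the TMEM-named genes 1 instead of 2 was called among probes above that median, and 2 when any 1 array was left out.

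Leaving out 1 array moved the correlations in LiCl to between -0.61 and 0.58 (clc-9 with clc-19), -0.10 and 0.88 (clc-9 with clc-25) and -0.71 and 0.92 (clc-19 with clc-25), and those in control to between 0.60 and 0.95, 0.60 and 0.78, and 0.78 and 0.87. The reversals came without LiCl replicate 1, and the cause was not tested. By Spearman's rho 1 of the 9 most alike genes was shared.

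Samples of equal number were not paired in the fit, because only 1 of the 6 pairs had a correlation of deviations over 0.1. With the replicate number as a block the adjusted p was 0.0121 for clc-9, 0.0303 for clc-19 and 0.0363 for clc-25 (limma), the differences were 1.45, 1.01 and 1.12, and 1393 probes changed.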
